A study of Mus musculus with 8 samples.

Results

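The transporters that carry bile acids, phospholipids and organic anions across the hepatocyte surface were examined in mouse liver after knockdown of Raly. The group consisted of 10 genes, namely Slc10a1, Slco1a1, Slco1a4, Slco1b2, Slco2b1, Abcb11, Abcb4, Abcc2, Abcc3 and Atp8b1. They were taken by gene name from the probes of the array, which gave 13 probes among 55681. All 13 probes were well above background on all 8 arrays, so all 10 genes were among the 14877 genes tested.

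The samples were livers of bl6 mice aged 12 weeks on a chow diet, collected on day 6 after transduction. The control group (4 arrays) received pblockITcontrol and the shRaly group (4 arrays) received pblockITshRaly, given in the labels as adenoshRaly, a short hairpin RNA against Raly. Both groups therefore carried a virus, and the labelled dose of 2e+09 has no unit. The comparison asks which liver transcripts differ when Raly, which encodes an hnRNP-type RNA-binding protein, is reduced. The labels do not give the sex of the mice, and nothing in them says whether every array came from a different animal, so a p-value here covers only the array-to-array spread, which may be technical.

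Bile acids circulate between the intestine and the liver. Hepatocytes take them up from portal blood through the sodium-dependent cotransporter NTCP (Slc10a1) and the sodium-independent organic anion transporters of the OATP family (the Slco genes). They secrete them into the canaliculus through the bile salt export pump BSEP (Abcb11). The canalicular membrane also holds the phosphatidylcholine floppase MDR2 (Abcb4), the conjugate exporter MRP2 (Abcc2) and the aminophospholipid flippase ATP8B1. MRP3 (Abcc3), on the basolateral side, returns conjugates to the blood. The bile acid receptor FXR (Nr1h4) is known to drive transcription of Abcb11 and of Nr0b2, a repressor of bile acid synthesis.

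The arrays were of similar quality, with 45.9% to 51.1% of spots well above background. The first principal component (30.2% of the variance) separated the controls (-22.7 to -7.58) from the shRaly arrays (7.88 to 29.8). On the second principal component (21.9% of the variance) shRaly 1 stood apart at -41.2, against -2.56 to 14.6 for the other 7 arrays. Values without shRaly 1 are given for several members. Raly signal in the shRaly group was 62.5% of control (log2 fold change -0.68, SE 0.15, n = 4 and 4; limma adjusted p = 0.0749). All 4 shRaly arrays lay below all 4 controls in Raly (p = 0.0286 in a two-sided exact permutation test, the lowest that 4 against 4 can give). Raly was at 51.8%, 80.9%, 58.3% and 62.7% of the control mean on shRaly 1 to 4. The lowest control, control 2, had 84.3%, so shRaly 2 was only narrowly below it, and shRaly 1 had the lowest Raly value. Without shRaly 2 the log2 fold change of Raly was -0.80 (limma adjusted p = 0.0297). The controls occupied 1 row of the slide and the shRaly arrays the other, so row effects and knockdown cannot be told apart. Of 9 hepatocyte markers, 0 passed the threshold and 7 were below 0, with a median of -0.096 (log2). Fewer cells of a type and less RNA per cell cannot be told apart in these bulk samples.

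No transporter message differed past the threshold, though some intervals were too wide to show similar levels (for Slco1a4 68.7% to 233% of control). None of the 10 genes passed limma's adjusted p of 0.05 in either direction, against 1.22% of all genes tested (0.914% lower and 0.309% higher). At an unadjusted p under 0.05 there were 2, Slco2b1 and Abcb11, both lower, against 9.71% of all genes in that direction and 16.1% in either. The same pair were the genes whose groups did not overlap, with every shRaly array below every control. Over all genes tested, 6.45% did so in that direction, 3.93% in the other and 10.4% in either. The median log2 fold change was -0.021 over the 10 transporters (-0.064 without shRaly 1) and -0.019 over all genes tested, and 6 of the 10 were below 0, against 53.8% of all genes. In the fit over probes, 0 of the 13 passed (0.698% of all probes). Of the 13, 3 were lower at an unadjusted p under 0.05 (8.9% of all probes). Those 3 were also the ones whose groups did not overlap, all lower (6.02% of all probes lower, 9.52% in either direction), and 8 of 13 were below 0 (55.3% of all probes).

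**Figure D1:**
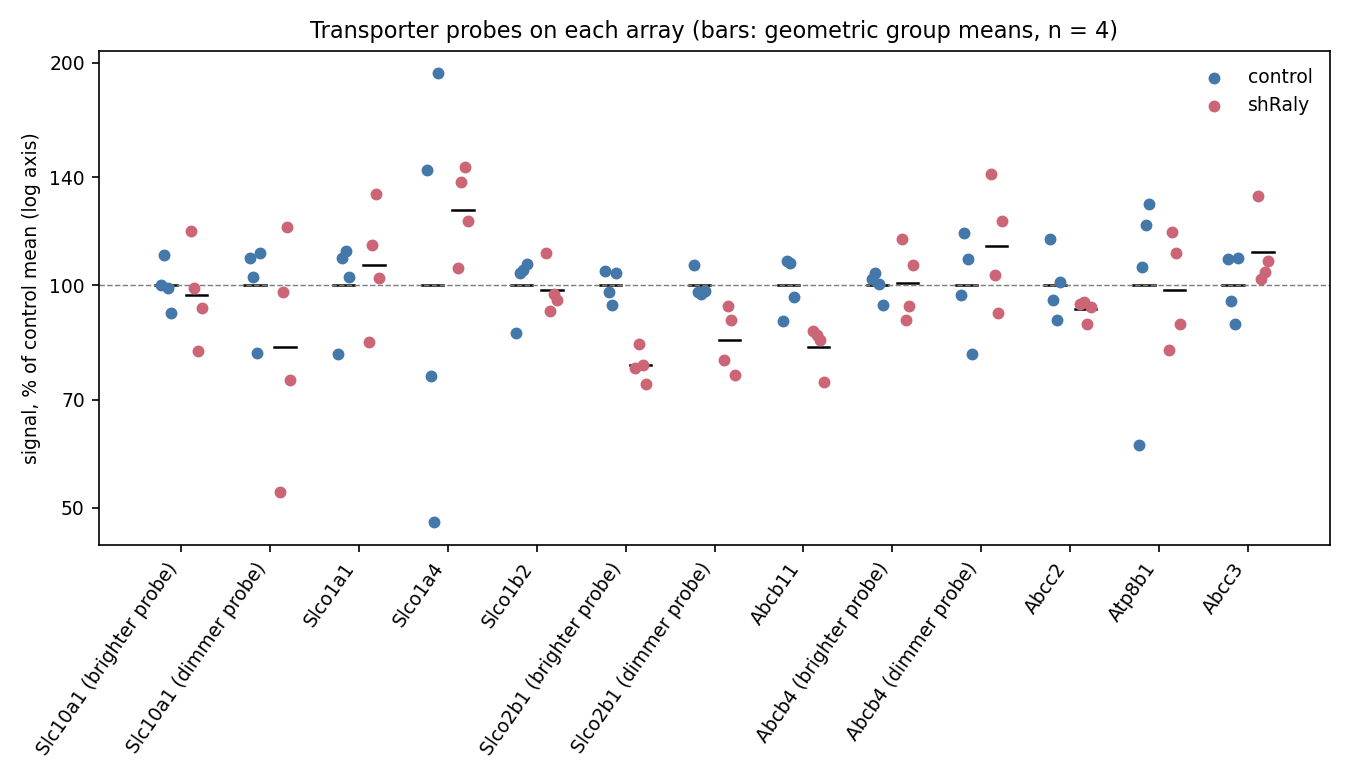
Signal of the 13 transporter probes on each of the 8 arrays, as a percentage of the geometric mean of the 4 control arrays on a log axis, with bars at the geometric group means. Both Slco2b1 probes and Abcb11 have all 4 shRaly points below all 4 control points, and Slco1a4 has control points from 47.8% to 194%.

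Slc10a1, the main sodium-dependent uptake carrier for conjugated bile acids, was represented by 2 probes that gave unlike patterns. The probes lie 4931 bases apart on the minus strand of chromosome 12 (mm9). They are shown because they differ in the genes that the files list for them. The first is the whole dimmer probe (chr12:82061470-82061529), and the second is a stretch of 30 bases from the brighter probe (chr12:82056563-82056592), both 5′ to 3′.
Slc10a1 single-gene probe: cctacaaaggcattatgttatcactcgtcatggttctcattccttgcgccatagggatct
Slc10a1 brighter probe, stretch: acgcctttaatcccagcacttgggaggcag
The stretch has the letters of the mouse B1 element, a short interspersed repeat found in many transcripts. The accessions listed for the brighter probe in the files belong to 4 genes (Slc10a1, 4930402H24Rik, Spc24 and Med16), whereas those of the dimmer probe, called the single-gene probe here, belong to Slc10a1 alone. Of the 55681 array probes, 1 held the whole stretch on either strand, and 2, with 2 gene names, held its core of 20 bases.

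The brighter probe varied less than the single-gene probe. It ran from 91.6% to 110.0% of the control mean on control arrays and from 81.5% to 118% on shRaly arrays. Its log2 fold change was -0.042 (SE 0.12, limma adjusted p = 0.904), and -0.14 without shRaly 1. Because it was brighter, it represented Slc10a1 in the test over genes. The signal that the B1 letters bring to this probe was not tested.

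The single-gene probe gave 109%, 103%, 80.9% and 111% on control 1 to 4. On shRaly 1 to 4 it gave 52.5%, 98.0%, 120% and 74.5%. The shRaly arrays thus held both the lowest and the highest value, a range of 2.29-fold against 1.37-fold among controls, and the groups overlapped. The shRaly mean was 82.4% of control (95% interval 56.3% to 121%; log2 fold change -0.28, SE 0.24; limma adjusted p = 0.648 over 26943 probes). Without shRaly 1, the array that stood apart, the log2 fold change was -0.063, and without shRaly 3 it was -0.46.

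Slco2b1, the OATP2B1 carrier of steroid conjugates and other organic anions, had lower values in the shRaly livers. Its brighter probe (chromosome 7, 106806923 to 106806982, minus strand, mm9) gave 105%, 97.8%, 94.1% and 104% on control 1 to 4. The shRaly arrays had 77.3%, 83.3%, 78.1% and 73.5%. The highest shRaly value was below the lowest control, and neither group spread by more than 1.13-fold. The shRaly mean was 78.0% of control (95% interval 68.5% to 88.8%; log2 fold change -0.36, SE 0.08, n = 4 and 4). It missed the threshold, with a limma adjusted p of 0.0829. The exact two-sided permutation p was 0.0286, the lowest that the design can give.

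A second Slco2b1 probe (106806901 to 106806960) pointed the same way. It gave 107%, 98.0%, 97.4% and 98.3% on control 1 to 4 and 79.2%, 93.9%, 89.7% and 75.7% on shRaly 1 to 4. Its log2 fold change was -0.25 (SE 0.10; limma adjusted p = 0.313 over probes). The pair of probes are not independent readings, because they share 38 of their 60 bases. Of those shared bases, 30 are shown (chr7:106806931-106806960, minus strand, mm9), to make the overlap visible.
Slco2b1 shared stretch: gctgtatacatacagctgattattaaattt
With normexp background correction the brighter probe passed the threshold (log2 fold change -0.44, limma adjusted p = 0.0353), as it did with trend and robust settings (adjusted p = 0.0385). Averaging the pair of probes gave -0.30 (adjusted p = 0.147), which did not pass.

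The other OATP genes lie together on chromosome 6 and showed no difference past the spread of the arrays. Slco1b2, the liver-specific uptake carrier of unconjugated bile acids, bilirubin and many drugs (141634476 to 141634535, plus strand, mm9), had a shRaly mean of 98.6% of control (95% interval 83.8% to 116%; limma adjusted p = 0.946). Its control arrays had 86.3%, 104%, 105% and 107%, and its shRaly arrays 110.4%, 92.2%, 97.3% and 95.4%. The groups overlapped.

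Slco1a1, an organic anion carrier of the basolateral membrane (141856493 to 141856552, minus strand), gave 80.7%, 109%, 111% and 103% on control 1 to 4. The shRaly arrays had 83.8%, 114%, 133% and 102%. The groups overlapped, and the shRaly mean was 107% of control (95% interval 82.9% to 137%; limma adjusted p = 0.824). The log2 fold change was 0.093, and 0.21 without shRaly 1. On the shRaly arrays Slco1a1 and the Slc10a1 single-gene probe were both lowest on shRaly 1 and both highest on shRaly 3. The brighter Slc10a1 probe ran the other way, highest on shRaly 1 (118%) and lowest on shRaly 3 (81.5%).

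Slco1a4, the OATP1A4 carrier of cardiac glycosides and bile acids (141754675 to 141754734, minus strand), was the most variable member. Control 1 to 4 had 143%, 75.4%, 47.8% and 194% of the control mean, and shRaly 1 to 4 had 105%, 138%, 145% and 122%. The controls thus spanned 4.05-fold and the shRaly arrays 1.37-fold, with all shRaly values inside the control range. The log2 fold change of 0.34 (SE 0.39, 95% interval -0.54 to 1.22; limma adjusted p = 0.716) rested on control 3, without which it was -0.015, and on control 4, without which it was 0.66.

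Across the 8 arrays, with values centred within each group, the genes most like Slco1a4 among 14854 were Wee1, Slc35a3, Zfand2b, Noct and Gchfr. They are given as a description, with Pearson correlations between 0.967 and 0.975 over the 8 arrays. They were picked as the highest of all genes and share the same arrays, so no p is given. Wee1, a kinase that restrains entry into mitosis, had 130.0%, 77.7%, 68.8% and 144% on control 1 to 4. Noct, which encodes nocturnin, had 128%, 79.5%, 60.3% and 162%. Both were thus high on controls 1 and 4 and low on controls 2 and 3, as Slco1a4 was. On the shRaly arrays they parted, since Noct had 172% to 240%, above every control, and Wee1 116% to 136%, within the control range.

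Abcb11, the bile salt export pump and the main exit of bile acids into the canaliculus, had lower values in the shRaly livers. Its probe (chromosome 2, 69076365 to 69076424, minus strand, mm9) gave 89.4%, 108%, 107% and 96.5% on control 1 to 4. The shRaly arrays had 86.6%, 85.7%, 84.3% and 73.9%. All 4 shRaly arrays lay below the lowest control. The shRaly mean was 82.5% of control (95% interval 70.6% to 96.3%; log2 fold change -0.28, SE 0.10). The adjusted p by limma was 0.216, and the exact two-sided permutation p was 0.0286. Under the alternatives run the log2 fold change stayed between -0.37 and -0.22, and the call was not reached in any.

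The sequence before the start of Abcb11 holds a close match to the FXR response element. The promoter results below leave out Abcc3 and Atp8b1, so no statement is made on a match in them. RefSeq promoters (GRCm38.p6, 250 bases before to 50 after the start) were used for 8 of the 10 genes. They were searched on both strands, allowing 1 mismatch, for AGGTCA followed by any 1 base and TGACCT, an inverted repeat that is the same on both strands. Matches stood in 27 of 32817 promoters of all genes (0.0823%) and in those of Abcb11 and Slco1b2. The 250 bases before each start are shown for this pair, with the match in capitals. The Abcb11 bases are chr2:69342617-69342866 (minus strand) and those of Slco1b2 chr6:141629268-141629517 (plus strand).
Abcb11 promoter: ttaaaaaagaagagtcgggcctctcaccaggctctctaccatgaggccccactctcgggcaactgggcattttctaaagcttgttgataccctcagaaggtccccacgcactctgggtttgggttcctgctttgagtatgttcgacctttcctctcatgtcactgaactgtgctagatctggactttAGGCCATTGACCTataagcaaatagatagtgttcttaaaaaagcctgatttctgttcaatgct
Slco1b2 promoter: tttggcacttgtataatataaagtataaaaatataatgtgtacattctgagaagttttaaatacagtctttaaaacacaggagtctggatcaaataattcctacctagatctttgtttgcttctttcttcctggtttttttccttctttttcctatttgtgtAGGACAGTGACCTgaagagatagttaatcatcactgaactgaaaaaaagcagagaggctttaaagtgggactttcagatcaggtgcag
The Abcb11 match begins at -63 and carries T4C, and the Slco1b2 match begins at -88 and carries T4A, counted from 1 at the 5′ end of the motif, with the motif's base first. The pair of genes with a match differed in their values, at 82.5% of control for Abcb11 and 98.6% for Slco1b2. A match in letters is a description and not evidence of binding.

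Abcb4, which moves phosphatidylcholine into bile, was read by its brighter probe (chromosome 5, 8959108 to 8959167, plus strand, mm9), shown because it carried the gene's value.
Abcb4 brighter probe: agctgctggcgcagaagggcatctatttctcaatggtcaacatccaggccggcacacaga
It gave 102%, 104%, 100.3% and 94.1% on control 1 to 4 and 115%, 89.6%, 93.9% and 106% on shRaly 1 to 4. The groups overlapped throughout, and the shRaly mean was 101% of control (95% interval 85.9% to 118%; limma adjusted p = 0.970). Its log2 fold change of 0.012 became -0.053 without shRaly 1. A second, dimmer probe, designed on a cDNA clone and lying 59426 bases upstream (8899682 to 8899741), had a log2 fold change of 0.18 (SE 0.17; limma adjusted p = 0.680 over probes). In it the control arrays ran from 80.8% to 118% and the shRaly arrays from 91.7% to 141%.

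Abcc2, the canalicular exporter of bilirubin glucuronides and glutathione conjugates, was slightly lower on average (chromosome 19, 43912079 to 43912138, plus strand, mm9). All 4 shRaly arrays, at 88.6% to 94.8%, were below the control mean, but they lay within the control range of 89.7% to 116% apart from the lowest. The shRaly mean was 92.8% of control (95% interval 79.6% to 108%; limma adjusted p = 0.626).

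Atp8b1, the flippase that keeps the canalicular membrane resistant to bile salts (chromosome 18, 64689357 to 64689416, minus strand, mm9), had a shRaly mean of 98.5% of control. Control 1 was low at 60.8%, and the other controls had 106%, 121% and 129%. The shRaly arrays had 81.7%, 118%, 111% and 88.5%. The interval for Atp8b1 was wide (67.8% to 143%; limma adjusted p = 0.976), so changes within it were not detectable with these arrays. The log2 fold change was -0.021, and 0.069 without shRaly 1. Over the 8 arrays its centred values were most like those of Kdm3a, Ear2, Gm14439, Fam76b and Elavl1, with Pearson correlations from 0.970 to 0.988 as a description.

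Abcc3, the basolateral exporter of conjugated bile acids and glucuronides (chromosome 11, 94204612 to 94204671, minus strand, mm9), had all 4 shRaly values above the control mean. Control 1 to 4 had 109%, 95.3%, 88.7% and 109%, and shRaly 1 to 4 had 132%, 102%, 104% and 108%. Only shRaly 1 lay above the highest control. The log2 fold change was 0.15 (SE 0.12, 95% interval -0.11 to 0.41; limma adjusted p = 0.565), and 0.066 without shRaly 1.

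**Figure D2:**
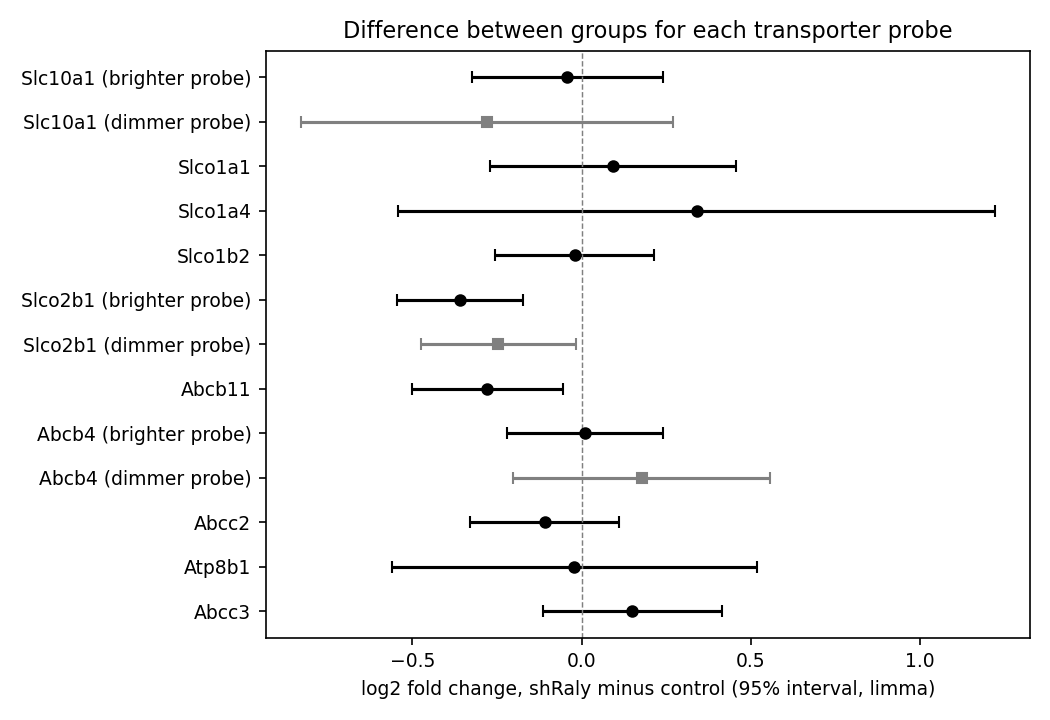
Log2 fold change of shRaly minus control for each transporter probe with its 95% interval from limma, with circles for the probe that represents a gene and grey squares for the other probe of that gene. The intervals of both Slco2b1 probes and of Abcb11 lie below 0 before adjustment, and those of Slco1a4 and of the Slc10a1 single-gene probe are wide (for Slco1a4 -0.54 to 1.22).

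The members differed in how far their values rested on single arrays. With each array left out in turn, Slco2b1 stayed between -0.39 and -0.33 on the log2 scale and Abcb11 between -0.33 and -0.23. The difference kept its sign for Abcc2 (-0.16 to -0.039) and Abcc3 (0.066 to 0.19) as well. The other 6 genes changed sign under at least 1 of these 8 settings, each from a value not past the threshold, with Slco1a4 between -0.015 and 0.66 and Atp8b1 between -0.26 and 0.0995.

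**Figure D3:**
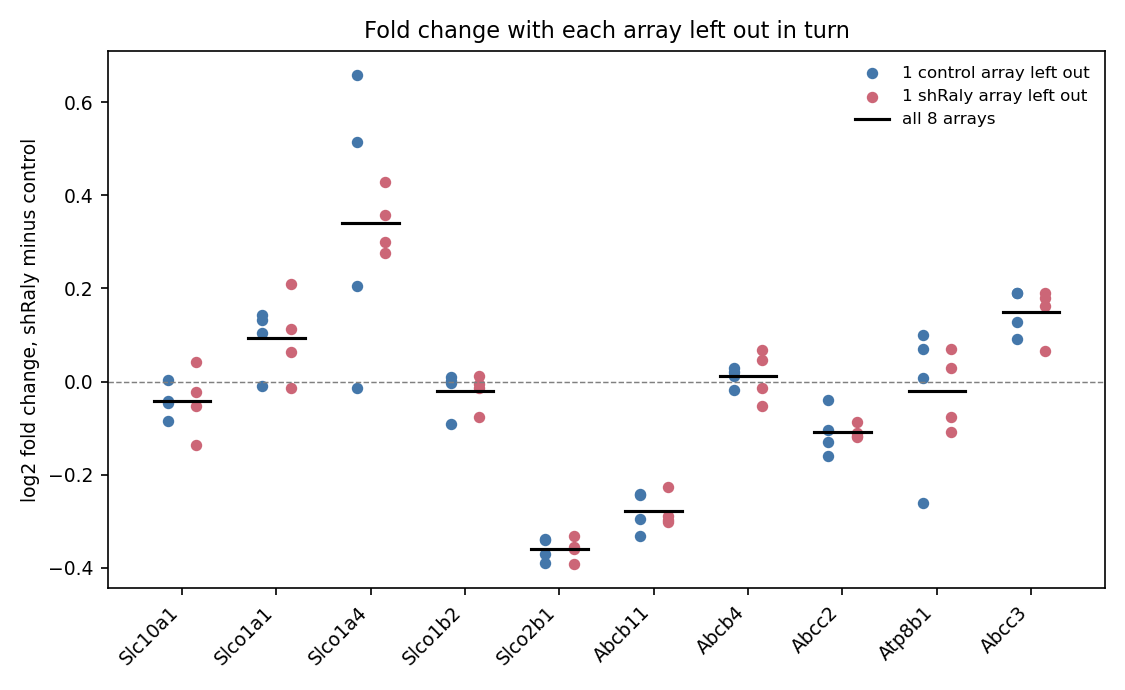
Log2 fold change of shRaly minus control for the 10 transporter genes with 1 array left out at a time, in blue where a control array and in red where an shRaly array was left out, with a bar for all 8 arrays. Slco2b1 and Abcb11 stay below 0 throughout, and Slco1a4 spreads from -0.015 to 0.66.

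Among other efflux and lipid transporters of the liver 1 of 14 genes tested passed the threshold, higher in shRaly, against 0.309% of all genes in that direction. Abcb1b, the MDR1B multidrug pump of the canalicular membrane and a close relative of Abcb4 and Abcb11, rose 1.78-fold (log2 fold change 0.83, SE 0.11; limma adjusted p = 0.0186). Its control arrays had 106%, 92.6%, 114% and 89.4%, and its shRaly arrays 174%, 159%, 198% and 182%, with no overlap. The log2 fold change was 0.42 with normexp background correction (adjusted p = 0.0370), and the call was lost with a replicate block (adjusted p = 0.0514) and with no filter on dim probes (adjusted p = 0.0605). It was also lost without control 2, control 4, shRaly 3 or shRaly 4 (adjusted p from 0.0520 to 0.0639). Of the 14 genes of that list tested, 13 did not pass and the median was 0.019. Among those, the sterol exporter subunit Abcg5 had 0.28 (adjusted p = 0.202 by limma) and its partner Abcg8 -0.079, and Abcb1a, the other MDR1 gene, 0.38 (adjusted p = 0.548). These 3 were chosen after their values were seen.

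The other carriers of the SLCO, SLC10 and SLC22 families had 0 of 12 genes tested past the threshold and a median of 0.12. Slc22a18, an organic cation transporter-like gene, had a log2 fold change of 0.29 (limma adjusted p = 0.117). Slco1a5 had -1.96 (adjusted p = 0.201) on a faint probe that was well above background on 4 control arrays and 1 shRaly array. Of the 20 genes on that list, 8 were too dim to be tested.

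Bile acid synthesis and conjugation had 0 of 17 genes past the threshold, a median of -0.032 and 0 by limma at an unadjusted p under 0.05, against 16.1% of all genes. The 2 smallest p-values were those of Cyp39a1, an oxysterol hydroxylase (0.30; limma adjusted p = 0.488), and Cyp46a1, the cholesterol 24-hydroxylase (-0.21; adjusted p = 0.549).

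Among the receptors and regulators of these transporters, 1 of 20 genes passed, lower in shRaly, against 0.914% of all genes in that direction, and 19 did not pass. Ppara, the fatty acid receptor that also acts on transporter genes, fell to 66.6% of control (log2 fold change -0.59, SE 0.11; limma adjusted p = 0.0498), a call that held in 1 of the 8 fits with an array left out (without shRaly 2). It was also lost with quantile scaling (adjusted p = 0.0946), the mean of probes (0.0958), a replicate block (0.119) and no filter on dim probes (0.139). Its shRaly arrays had 74.8%, 73.6%, 56.8% and 62.8%, and its controls 93.5% to 109.8%. Nr1h4, the bile acid receptor FXR, had a log2 fold change of -0.21 (SE 0.09; adjusted p = 0.321), with 100%, 85.4%, 79.2% and 82.7% on shRaly 1 to 4 and 97.9% to 105% on controls. Nr0b2, its target, had -0.066 (SE 0.26; adjusted p = 0.929), with controls from 66.8% to 174%. The latter pair were chosen after their values were seen. The list's median was -0.053.

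Genes that hold the transporters in place at the canaliculus or seal it had 0 of 20 past the threshold and a median of -0.049. Of the 20, 15 were below 0, against 53.8% of all genes. Their summed level, in which the brightest genes weigh most, was 97.4% to 103% on controls and 86.7% to 97.2% on shRaly arrays. The list's medians on single arrays overlapped, at -0.06 to 0 on controls and -0.096 to 0.088 on shRaly arrays (log2). Ezr, which encodes the membrane-cytoskeleton linker ezrin, had 0.34 (limma adjusted p = 0.182). Anpep, a canalicular aminopeptidase, had -0.24 (adjusted p = 0.321).

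**Figure D4:**
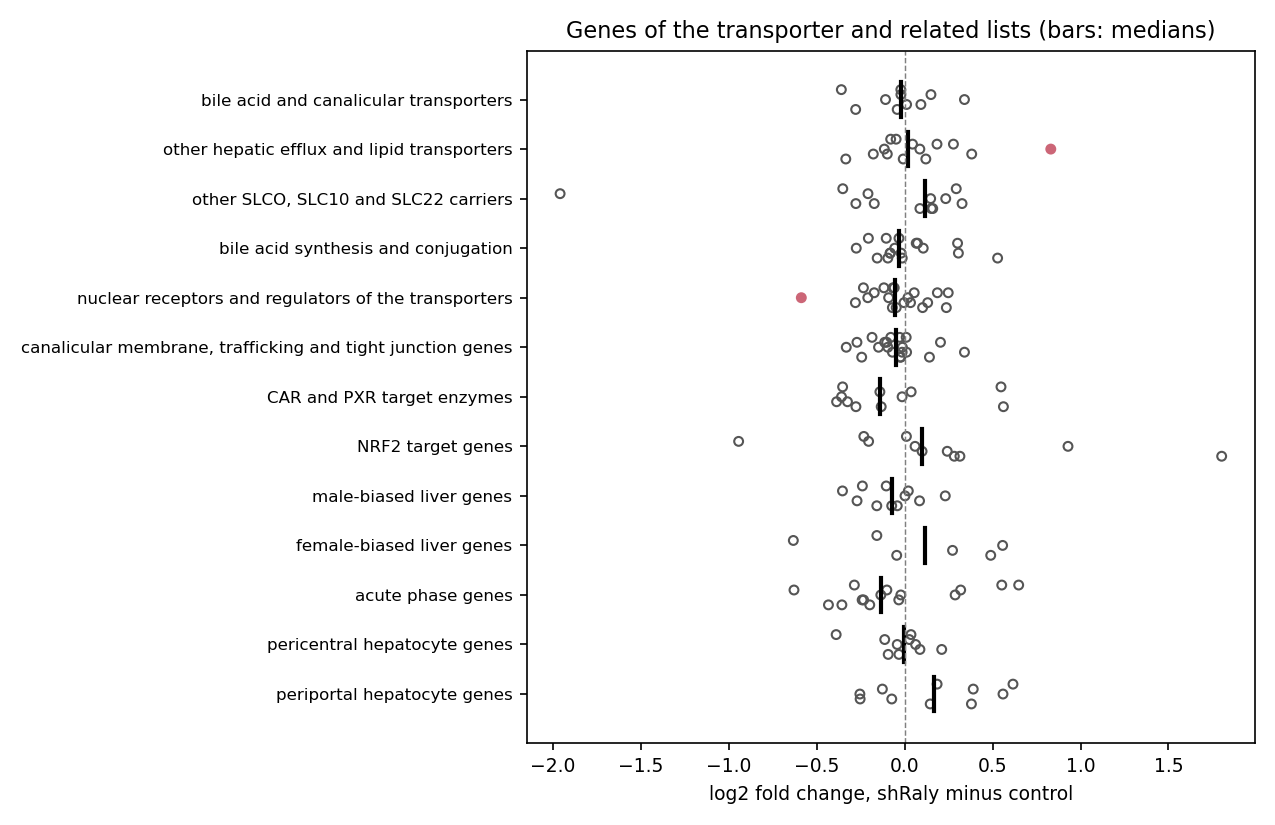
Log2 fold change of shRaly minus control for each tested gene of the transporter list and of 12 related lists, with bars at the list medians and filled red points for genes past limma's adjusted p of 0.05. The filled points are Abcb1b at 0.83 and Ppara at -0.59, and the transporter list has none.

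Cell markers were compared beside these values. The summed level of the 9 hepatocyte markers was 93.9% to 106% of the control mean on control arrays and 83.0% to 104% on shRaly arrays. Single markers ran from Apoa1 at 72.1% of control (limma adjusted p = 0.256) and Alb at 77.5% (0.225) to Tat at 136% (0.306), and Ttr and Ass1 stood at 97.2% and 99.2%. Endothelial markers summed to 93.5% to 105% on controls and 76.1% to 93.3% on shRaly arrays, with 0 of 9 past the threshold and 6 below 0. The sums, in which the brightest markers weigh most, narrowly did not overlap. The markers' medians on single arrays did, at -0.16 to 0.065 on controls and -0.44 to -0.041 on shRaly arrays (log2). The 7 cholangiocyte markers tested summed to 61.8% to 171% and 75.3% to 98.7%, with 5 below 0, and on none of the 8 arrays was Muc1 well above background. Of the stellate markers 0 of 9 passed, 7 were below 0 and the median was -0.25, with sums of 89.9% to 112% on controls and 90.2% to 109% on shRaly arrays. Lymphocyte markers summed to 88.4% to 124% and 55.4% to 94.0%, with 0 of 9 past the threshold and 5 below 0. All 4 enterocyte markers tested were below 0, with sums of 92.7% to 107% and 67.5% to 97.5%. Of these 4, 1 passed, Alpi, lower in shRaly (limma adjusted p = 0.0346). Its probe was well above background on 4 control and 0 shRaly arrays. It thus met the filter only through the controls, where it was higher, and no conclusion is drawn from its call. Kupffer cell, neutrophil and red blood cell markers had 0 past the threshold and medians of 0.0796, 0.15 and -0.031. The part of these shifts in the values of Slco2b1 and Abcb11 was not tested.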

How the data were processed

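Liver RNA was hybridised to single-colour (Cy3) Agilent arrays. The deposited intensity values come from Agilent Feature Extraction 11.5.1.1, per the file headers (11.5.1.11 in the submitters' processing notes): a background-subtracted, spatially detrended processed signal, not normalized between arrays, with mean signal and local background intensity beside it. The deposited series table equalled the processed signal intensity for all 62976 spots. No source used here describes further normalization by the authors.

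Processed signals were taken to log2, the 75th percentile of the 59305 non-control spots of each array (7.86 to 8.19) was subtracted, and spots flagged as non-uniform or population outliers (137 to 163 per array) were set to missing. No spot was saturated. Values in the text are back-transformed as percent of the geometric control mean. Probes needed a signal well above background on 4 or more of the 8 arrays and 3 or more values per group, and a gene was represented by its brightest such probe. This gave 14877 genes, and 26943 probes in a second fit. Of the 55681 probes, 27656 were named through RefSeq accessions, 3390 by a current and 319 by an older symbol, 1775 by the name in the file, and 22541 were not named. Groups were compared with limma 3.58.1 in R 4.3.3 (lmFit, eBayes, Benjamini-Hochberg adjustment over all genes or probes, threshold 0.05), which was tested on simulated data. Intervals are at 95% and unadjusted. The number of arrays limits the precision. Coordinates are those of the files (mm9). Whether probes lie in exons or UTRs was not analysed here.

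The members, the gene lists and the tests were chosen with earlier results of these data known. Named genes were all members with all probes, Raly, in each pathway list as many as 4 genes that passed (or the 2 of smallest p as values), and for the 2 most variable members the 5 genes most correlated over arrays. Alternatives were normexp, quantile and median scaling, 2 dim-probe filters, the mean of probes, a replicate block, the deposited table, eBayes trend and robust settings, and leaving out each array. Leaving out probes whose accessions name more than 1 gene was added after seeing the data.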

Additional observations from a re-analysis of the deposited data

Results flagged for a closer look

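For the 13 transporter probes and the Raly probe, in 2 of the 28 sets of 4 arrays formed by a probe and a group, 1 array lay far from the other 3 (Dixon's test at the 95% level, critical value 0.829), and chance alone gives about 1 in 20. Both concern control 1. For Slco1b2 it had 86.3% of the control mean, with the other controls at 104% to 107%. For the second Slco2b1 probe it had 107%, with the others at 97.4% to 98.3%. The brighter Slco2b1 probe, which shares 38 bases with it, had no such gap. Without control 1 the log2 fold change of Slco1b2 was -0.092, that of the second Slco2b1 probe -0.22 and that of the brighter one -0.34.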

How the results depend on the processing

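The count of transporter genes past limma's threshold was 0 in the chosen setting and 1 with normexp background correction and with trend and robust settings (Slco2b1 in both). It was 0 under every other alternative and in all fits with an array left out, and no transporter probe passed in the fit over probes. The transporters' median log2 fold change of -0.021 went to -0.068 with normexp and -0.048 with median scaling, and ran from -0.064 to 0.0055 with arrays left out. Over all genes, 182 passed, 42 with no filter on dim probes (24025 genes tested), 46 with a replicate block, and 17 to 285 with 1 array left out. The counts were 55, 17, 21 and 49 without control 1 to 4 and 119, 285, 47 and 20 without shRaly 1 to 4. The cause was not tested. Directions turned only for values not past the threshold: Abcb4 to -0.087 with normexp and -0.016 with median scaling, and Slc10a1 to 0.0062 with quantile scaling. With arrays left out, Abcb4 ran from -0.053 to 0.068, Atp8b1 from -0.26 to 0.0995, the brighter Slc10a1 probe from -0.14 to 0.043, Slco1a1 from -0.013 to 0.21, Slco1a4 from -0.015 to 0.66 and Slco1b2 from -0.092 to 0.011. Replicate numbers are shared by the groups and gave correlations of -0.07 to 0.14 between same-numbered arrays. Such correlations cannot exclude that same-numbered arrays were handled together, and the main fit took the arrays as unpaired. The replicate block changed no transporter call. With probes naming more than 1 gene left out, Slc10a1 was represented by its single-gene probe and had -0.28.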

Other observations

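Lists of genes that respond to the same receptors as several of the transporters were also measured. Of 11 target enzymes of the xenobiotic receptors CAR and PXR, 0 passed the threshold and 8 were below 0, with a median log2 fold change of -0.14. The cytochromes P450 Cyp2c50 and Cyp2c37 stood at 79.9% and 82.6% of control (limma adjusted p = 0.207 and 0.210), with no overlap of the groups, as 6.45% of all genes had in that direction. Gstm3 and Por went the other way, at 146% and 148% (adjusted p = 0.258 and 0.319). Of 11 NRF2 targets, genes of the oxidant response, 0 passed, the median was 0.0995, and 4 had all shRaly arrays above all controls, against 3.93% of all genes. Among them Nqo1, a quinone reductase, had 0.93 (adjusted p = 0.105) and Gstm1, a glutathione transferase, 0.31 (adjusted p = 0.121). The list ran from Osgin1 at -0.94 (adjusted p = 0.146) to Cbr3 at 1.80 (adjusted p = 0.129).

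Genes of the acute phase had 0 of 15 past the threshold and a median of -0.13, with Saa3, a serum amyloid A, at 0.65 (limma adjusted p = 0.156) and the fibrinogen chain Fga at -0.63 (adjusted p = 0.194). Male-biased liver genes had 0 of 11 past it and a median of -0.073, with Mup21 at -0.35 (adjusted p = 0.212) and Cyp2u1 at 0.23 (adjusted p = 0.524). Female-biased genes had 0 of 6 and a median of 0.11, with Cyp17a1 at 0.56 (adjusted p = 0.351) and Cyp3a16 at -0.16 (adjusted p = 0.641). Pericentral and periportal hepatocyte genes had 0 of 10 each, with medians of -0.0025 and 0.17. Tbx3 stood at -0.39 (adjusted p = 0.443) and Oat at 0.21 (adjusted p = 0.735) in the first, and Pck1 at 0.39 (adjusted p = 0.190) and Hal at -0.25 (adjusted p = 0.252) in the second.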
